A study of Rattus norvegicus with 4 samples.

Results

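The genes described here encode the ATP-driven chaperones of the HSP70 and HSP90 families, their DNAJ partners, the chaperonin TRiC of the cytosol and the HSP60-HSP10 chaperonin of mitochondria. They were taken by platform gene symbol: Hspa, Dnaja, Dnajb, Dnajc or Cct followed by a number, any symbol starting with Hsp90, and Hsph1, Hspd1, Hspe1 and Tcp1. The rule gave 76 genes, covered by 191 features, out of 19867 named genes on the array. The rule itself uses no measured value. Of the 76, 2 are annotated as pseudogenes, Cct6a-ps1 and Cct6a-ps3. Each gene is represented by its brightest feature, the one with the highest mean over the 4 arrays.

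The cells were ventricular cardiomyocytes, the heart muscle cells that contract to pump blood, isolated from SD rats at postnatal day 3. All cultures spent 48 h in medium with 5% horse serum and, to hold back dividing cells, 20 µM cytosine arabinoside, and were then infected with adenovirus for 48 h. The virus carried Smyd2 in 2 cultures and LacZ, which encodes the bacterial enzyme beta-galactosidase, in the 2 control cultures. All 4 titles begin with siScr, and whether a small interfering RNA was present in every culture is not settled by the labels, which also do not name the promoter of the constructs. The design text calls the 2 samples of a group biological replicates, with 1 single-colour array for each.

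HSP70 proteins clamp unfolded stretches of a client protein in cycles of ATP hydrolysis. DNAJ proteins bring the clients and start hydrolysis, while HSP110 relatives exchange the nucleotide so that the client is released. HSP90 takes over clients that are almost folded, such as kinases and steroid receptors, with the help of cochaperones, and TRiC folds actin and tubulin inside a double ring. Cardiac muscle depends on these machines because its myosin, actin and titin filaments are large and turn over under constant load. SMYD2, a lysine methyltransferase, is known to methylate HSP90 in the cytoplasm of muscle cells.

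The whole table had these properties. The deposited values are log2 intensities, and the number of arrays, 2 in each group, limits their precision. The single Smyd2 feature read 8.72 and 8.86 on the controls, compared with 8.92 and 8.42 in the Smyd2-labelled cultures, so the groups overlapped (difference −0.12, SE 0.28, limma adjusted p = 0.913). Where this probe lies relative to the expressed construct is not known here, so it checks nothing, and every direction below rests on the labels. With limma, 0 of 19867 genes had an adjusted p under 0.05 (0%), while 2363 had an unadjusted p under 0.05. After adjustment 383 genes passed when limma's prior was robust and followed intensity. Median absolute log2 differences between arrays were 0.3753 for the control pair, 0.2548 for the pair labelled Smyd2 and 0.3735 to 0.3887 between groups. Of 8 cardiomyocyte markers, 7 were lower on the arrays labelled Smyd2 (median −1.89), and of 10 fibroblast markers, 9 were higher (median 0.97). The exceptions, Actc1 and Col1a1, were at the top of the scale in both groups and have no readable direction. The groups overlapped for 4 of the 10 fibroblast markers and for 0 of the 8 cardiomyocyte markers. In bulk RNA, fewer cells of a type and less RNA per cell cannot be told apart.

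The heat shock element is the binding motif of the heat shock factors, searched as GAA, TTC and GAA in that order, or TTC, GAA and TTC on the other strand, with 2 bases of any kind between neighbouring units. The sequences below show where it lies near the starts of chaperone genes, because 2 of these genes share it and read lower together. The other genes that hold it and have a readable difference overlapped between the groups. Whether the element has a part in any difference was not tested. RefSeq's table for the GRCr8 build holds a 300-base window, from 250 bases before to 50 after the gene start, for 61 of the 76 genes. The motif was present in 6 of these 61 (9.84%) and in 267 of all 33469 windows (0.798%), searched on both strands. Genes not listed below, such as Hspa1a, Dnajb1 and Hsp90aa1, had no window or no exact match within it. Looser matches and bases outside the windows were not searched. Hspd1 and Hspe1, which encode HSP60 and HSP10, lie head to head on chromosome 9 with 290 bases between their starts, and 2 overlapping copies of the motif fall in the 211 bases that their windows share. Each sequence is written 5′ to 3′ on the strand of its gene, in lower case with the motif in capitals and 5 bases on either side.
Hspe1, chr9:64084257-64084284, plus strand: ctcggTTCTAGAACCTTCCGGAAggccc
Hspd1, chr9:64084257-64084284, minus strand: gggccTTCCGGAAGGTTCTAGAAccgag
Hspa8, chr8:50080296-50080318, plus strand: agcgtGAAAGTTCCAGAAcgctg
Hspa8, chr8:50080454-50080476, plus strand: aacccTTCTGGAAGGTTCtaaga
Hsph1, chr12:10427327-10427349, plus strand: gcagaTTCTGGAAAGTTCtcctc
Dnaja1, chr5:60638408-60638430, plus strand: gggcgGAACTTTCCAGAAcgctc
Cct4, chr14:101193077-101193099, plus strand: tcgctTTCTGGAAGGTTCgtgga
The 250 bases before the start of Hspe1, chr9:64084077-64084326 on the plus strand, carry the shared element towards their 3′ end.
Hspe1 upstream: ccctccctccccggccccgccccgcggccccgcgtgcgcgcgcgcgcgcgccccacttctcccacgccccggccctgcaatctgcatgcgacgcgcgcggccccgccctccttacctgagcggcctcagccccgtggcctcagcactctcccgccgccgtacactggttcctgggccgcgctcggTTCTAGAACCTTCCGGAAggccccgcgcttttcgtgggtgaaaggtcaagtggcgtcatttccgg

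Most chaperones, like most genes on the array, differed little between the groups. The median log2 difference over the 76 genes, arrays labelled Smyd2 minus control arrays, was −0.16, or 1.12-fold lower, against a median of 0.01 over all genes. Of the 76 genes, 57 were lower and 19 higher, where 48.8% of all genes were lower and 51.2% higher. The difference was under 0.5 log2 units in either direction for 59 of the 76, and for 14319 of all 19867 genes. The median 95% interval of the 76 reached 0.65 log2 units to either side of a difference. A difference of 1 unit or more was seen in 2 of the 76, both lower, where 4.12% of all genes were lower by that much and 3.11% higher. The mean log2 intensity of 18 of the 76 was under 6, the level below which genes are called dim here, and the table carries no flags to say whether such genes lay above background.

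With limma, 0 of the 76 genes had an adjusted p under 0.05, under either prior, although 1.45% of all genes were called lower by the latter and 0.478% higher. At an unadjusted p under 0.05, 6 genes were lower, or 7.89% against 6.39% of all genes, and 0 were higher against 5.51% of all genes. The first share is close to that of all genes, and its count dropped to 2 when Smyd2 replicate 1 was left out and to 3 when Smyd2 replicate 2 was. The 2 arrays of each group lay wholly apart, with the arrays labelled Smyd2 lower, in 28 of the 76 genes (36.8%, against 20.8% of all genes). They lay apart with these arrays higher in 5 (6.58%, against 21.9% of all genes). With 2 arrays against 2, an exact permutation test of 1 gene cannot go below p = 0.333.

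**Figure D1:**
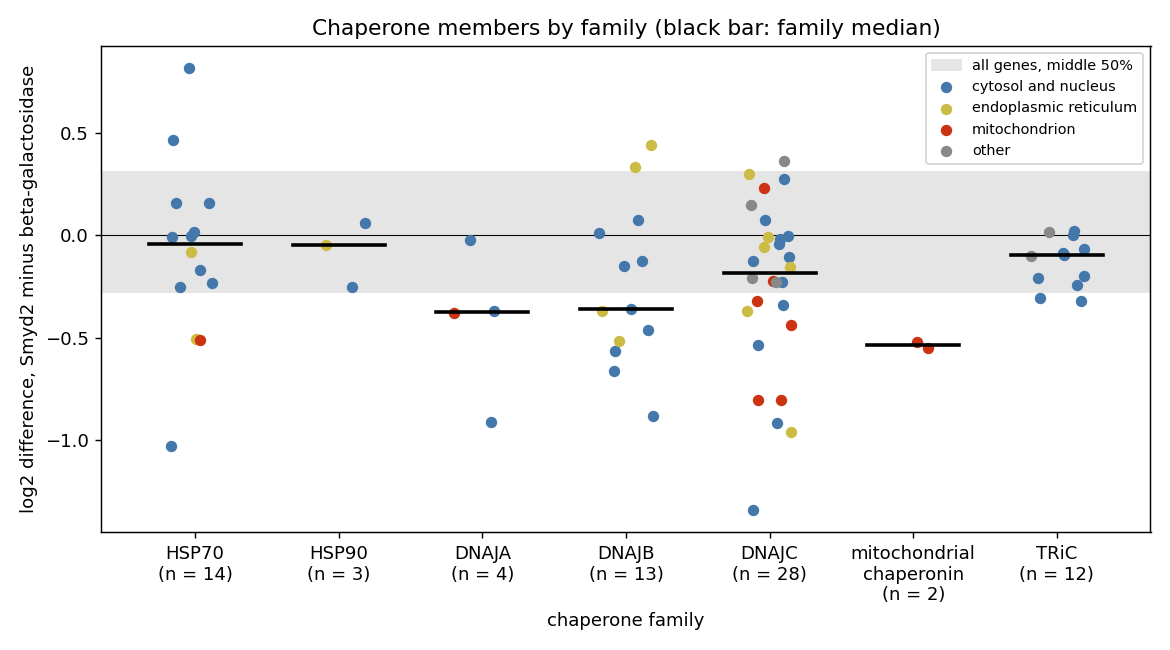
Log2 difference (y axis, arrays labelled Smyd2 minus beta-galactosidase arrays) of each of the 76 chaperone genes by family (x axis), coloured by compartment, with black bars at the family medians and a grey band for the middle 50% of all genes. HSP70, HSP90 and TRiC have medians of −0.05, −0.05 and −0.10, while both genes of the mitochondrial chaperonin lie near −0.54.

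By family, the medians were −0.05 for the 14 HSP70 genes with Hsph1, −0.05 for the 3 HSP90 genes and −0.10 for the 12 TRiC genes. The HSP70 median was −0.13 with dim genes dropped, −0.11 with features averaged and −0.11 to −0.07 when each array was left out. They were −0.38 for the 4 DNAJA genes, −0.36 for the 13 DNAJB genes, −0.18 for the 28 DNAJC genes and −0.54 for the 2 genes of the mitochondrial chaperonin. By compartment, the 10 mitochondrial genes had a median of −0.47, the 13 genes of the endoplasmic reticulum −0.08 and the 47 genes of the cytosol and nucleus −0.13. The 6 remaining genes, of vesicles or other sites and the pseudogenes, had a median of −0.04. Over the 4 possible pairs of 1 array from each group, the mitochondrial median ran from −0.56 to −0.34, that of the endoplasmic reticulum from −0.20 to −0.004 and that of the cytosol and nucleus from −0.28 to −0.03. The differences between families or compartments themselves were not tested.

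**Figure D2:**
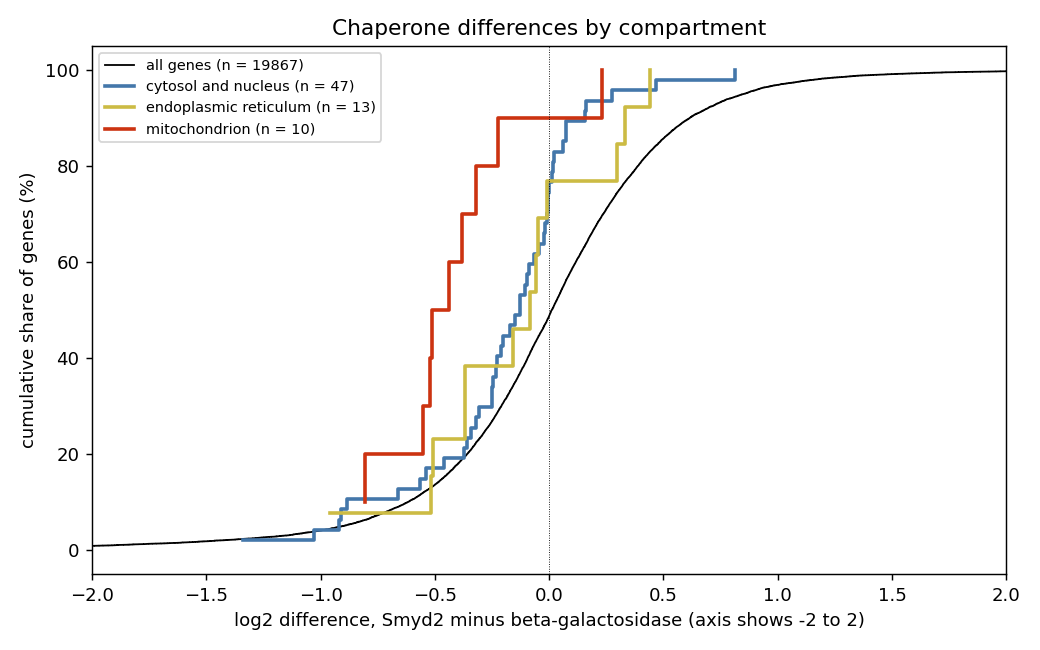
Cumulative share of genes (y axis, percent) at or below each log2 difference (x axis) for the chaperones of 3 compartments and for all 19867 genes. At its median of −0.47 the mitochondrial line lies to the left of the others, with 9 of its 10 genes below 0 and none below −0.81, and the lines of the cytosol and nucleus and of the endoplasmic reticulum cross each other near their medians of −0.13 and −0.08.

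In the mitochondrion, imported chains are pulled in and folded by the HSP70 of the matrix, encoded by Hspa9, and then by the HSP60-HSP10 chamber. Groups lay apart for all 10 mitochondrial genes, 9 of them with the arrays labelled Smyd2 lower and 1 with these arrays higher. That is 90.0% lower where 20.8% of all genes were. Hspe1, the HSP10 lid, read 14.76 and 14.81 in the control cultures against 14.16 and 14.30 in those labelled Smyd2. Hspd1, the HSP60 barrel, read 13.88 and 14.15 against 13.52 and 13.46. Both genes were thus lower on each array labelled Smyd2 than on either control array, by 1.47-fold (difference −0.55, SE 0.23, 95% interval −1.14 to 0.04) and 1.44-fold (−0.52, SE 0.24, −1.14 to 0.10).

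Neither passed limma's test, with adjusted p = 0.444 for Hspe1 and 0.488 for Hspd1. Hspe1 was spotted as 20 features and Hspd1 as 13, and every one of them was lower, from −0.62 to −0.51 and from −0.64 to −0.38. These features share the RNA of the same 4 cultures and are not replicates of the condition. Hspa9 read 12.77 and 12.86 on the controls, compared with 12.36 and 12.24 in the Smyd2-labelled cultures, a 1.43-fold lower level (−0.51, SE 0.23, limma adjusted p = 0.474). Its 3 features ran from −0.55 to −0.45.

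Some of the mitochondrial DNAJ proteins hand chains to the HSP70 of the matrix or sit beside it at the import channel. Dnajc15, an inner membrane protein tied to the import motor and to complex I, read 11.90 and 11.73 in the control cultures against 10.76 and 11.26 in those labelled Smyd2 (−0.81, SE 0.28, limma unadjusted p = 0.0347, adjusted p = 0.377). Dnajc11, a partner of the cristae-shaping MICOS complex, read 6.82 and 6.74 against 5.98 and 5.96 (−0.81, SE 0.23, limma unadjusted p = 0.016, adjusted p = 0.312). In both genes each array labelled Smyd2 read below each control array, with the 2 arrays labelled Smyd2 further apart for Dnajc15 than for Dnajc11. With replicate number as a block, Dnajc15 no longer had an unadjusted p under 0.05 by limma. The 5 further DNAJ genes that the symbol rule took for this compartment are named after their values were seen, so that all 10 are given. Dnajc19, an import motor subunit whose loss causes a human cardiomyopathy, differed by −0.44, Dnaja3, the matrix DNAJ protein also called Tid1, by −0.38, and Dnajc4 by −0.32. Dnajc30 at −0.22 and Dnajc28 at 0.23, the single higher gene, were both dim.

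**Figure D3:**
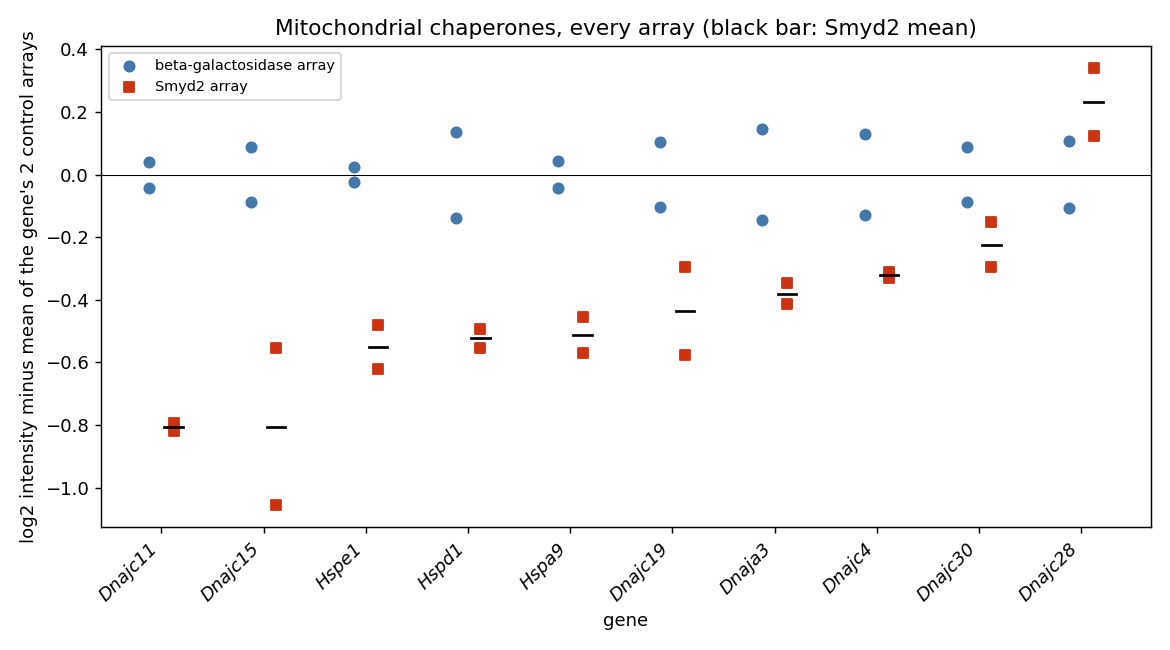
Log2 intensity of the 10 mitochondrial chaperone genes (x axis) on every array, minus the mean of the gene's 2 control arrays (y axis); circles are beta-galactosidase arrays, squares are arrays labelled Smyd2 and black bars their means. The squares lie below both circles for 9 genes, from Dnajc11 at −0.81 to Dnajc30 at −0.22, and above them for Dnajc28.

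Other genes of mitochondrial folding and proteolysis, outside the symbol rule, ran the same way. Of 11 measured genes 9 were lower and 2 higher (median −0.33), and arrays labelled Smyd2 lay below both controls for 6 (54.5%, against 20.8% of all genes) and above both for 1, Grpel2 (9.09%, against 21.9%). The other higher gene, Hscb, named after its values were seen, differed by 0.03, and its groups overlapped. Grpel1, the nucleotide exchange factor of the matrix HSP70, read 11.19 and 11.34 against 10.62 and 10.76 (−0.57, SE 0.23, limma adjusted p = 0.437). Spg7 and Afg3l2, which form the m-AAA protease of the inner membrane, differed by −0.74 (SE 0.25) and −0.55 (SE 0.24), and Clpx, the unfoldase of the Clp protease, by −0.50 (SE 0.29). At an unadjusted p under 0.05, 1 of the 11, Spg7, was lower (9.09%, against 6.39% of all genes) and 0 were higher, and 0 passed after adjustment. The other feature of Spg7 differed by −0.13.

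Markers of cell types were read beside the mitochondrial genes. The summed signal of the 8 cardiomyocyte markers, as log2, was 18.40 and 18.46 on the controls, compared with 17.58 and 17.47 in the Smyd2-labelled cultures. Actc1 was at the top of the scale in both groups, and Tnnt2, Myh6, Myh7 and Myl2 on at least 1 control array, so the sizes of these 4 are lower bounds. Under the robust prior that follows intensity, 6 of the 8 cardiomyocyte markers passed limma's adjusted test as lower, against 1.45% of all genes. Under the other prior 0 of the 8 passed. The summed signal of the 10 fibroblast markers was 16.95 and 17.27 against 17.42 and 17.25. Col1a1, the brightest of them, was at the top of the scale in both groups, so this sum can hide a difference. The groups overlapped for 4 of the 10 fibroblast markers, and 0 of the 10 passed limma's adjusted test under either prior. The summed signal of the 8 leukocyte markers, all 8 higher, was 12.13 and 10.99 against 13.89 and 12.51. For 5 of these 8 the groups overlapped, and 0 passed limma's adjusted test under either prior. All 6 smooth muscle and pericyte markers were higher (median 0.74), summing to 15.31 and 16.19 against 16.25 and 15.97, but the groups overlapped for 4. Of the 6, Notch3 (1.64) and Rgs5 (1.77) passed limma's test under the robust prior that follows intensity, with adjusted p = 0.033 and 0.0416. In that fit 0.478% of all genes passed as higher. Neither passed limma's test under the other prior, with adjusted p = 0.188 and 0.217. Of 6 endothelium markers 3 were lower and 3 higher, and 4 were dim. No cardiomyocyte marker was dim, and 1 fibroblast marker, Lum, and 3 leukocyte markers, Ptprc, Csf1r and Itgam, were. The part of these markers in the chaperone differences was not tested.

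In the cytosol, the HSP70 genes gave no common direction. Hspa8, the constitutive HSP70, read 15.995, 15.995, 15.998 and 15.984 over the control arrays and then the arrays labelled Smyd2. That feature is at the top of the scale in both groups, so no difference can be read from it. The 4 features of Hspa8 differed by −0.23 to 0.21. Hspa1a, the HSP70 that heat induces, read 10.43 and 10.63 in the control cultures against 10.77 and 10.61 in those labelled Smyd2, so the groups overlapped (0.16, SE 0.24, 95% interval −0.45 to 0.77, limma adjusted p = 0.848). Its dimmer feature differed by −0.42. Hspa1b, a nearly identical copy of Hspa1a, was dim, at 3.07 and 2.72 against 2.62 and 3.48, so its probe showed little of the Hspa1a signal. Whether the Hspa1a features also read Hspa1b transcripts was not tested.

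The HSP110 relatives of HSP70 are Hspa4, Hspa4l and Hsph1. Hspa4, named after its values were seen, overlapped between the groups (−0.23, SE 0.27, limma adjusted p = 0.799). Hspa4l read 5.66 and 6.43 on the controls, compared with 4.74 and 5.29 in the Smyd2-labelled cultures, wholly apart (−1.03, SE 0.37, limma unadjusted p = 0.04, adjusted p = 0.394). Without beta-galactosidase replicate 2 the difference was −0.65. Its other feature differed by −1.77, and both are dim, so the size may be a lower bound. Hsph1, the heat-inducible HSP110, read 6.96 and 5.88 against 6.63 and 7.14. Here the control arrays stood further apart than the group means (0.47, SE 0.44, limma adjusted p = 0.747), and without beta-galactosidase replicate 2 the difference turned to −0.08.

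Of the 76 genes, Dnajc12 had the largest difference by brightest feature. Dnajc12, a partner of HSP70 in the folding of aromatic amino acid hydroxylases, read 5.77 and 6.51 in the control cultures against 4.84 and 4.76 in those labelled Smyd2, 2.53-fold lower (−1.34, SE 0.32, 95% interval −2.17 to −0.51, limma unadjusted p = 0.00892, adjusted p = 0.268). It was dim in the second group, so the size may be a lower bound. Dnajc21, which assists the maturation of the large ribosomal subunit, read 8.74 and 8.56 against 7.80 and 7.66 (−0.92, SE 0.24, limma unadjusted p = 0.0114, adjusted p = 0.287). Dnaja4 read 7.16 and 7.62 against 6.44 and 6.51 (−0.91, SE 0.27, limma unadjusted p = 0.019, adjusted p = 0.324). In these 3 genes both arrays labelled Smyd2 were below both control arrays, and the distance between the groups was larger than the distance within either.

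Dnajb5, which in cardiomyocytes binds a class II histone deacetylase under redox control, read 6.17 and 6.99 on the controls, compared with 5.50 and 5.89 in the Smyd2-labelled cultures (−0.88, SE 0.36, limma adjusted p = 0.443), and without beta-galactosidase replicate 2 the difference was −0.47. The control arrays were nearly as far from each other as the group means were. Dnajb6, a Z-disc DNAJ protein mutated in a human limb-girdle muscular dystrophy, read 10.02 and 10.60 against 10.06 and 9.84, and the groups overlapped (−0.36, SE 0.30, limma adjusted p = 0.710). It was −0.07 without beta-galactosidase replicate 2 and −0.65 without replicate 1. Its 3 features were all lower, from −0.74 to −0.28. Dnajb1, the main heat-inducible DNAJ protein, read 10.07 and 9.89 against 9.91 and 9.75 (−0.15, 95% interval −0.76 to 0.46). Its relative Dnaja1, whose window holds the heat shock element, read 10.19 and 10.36 against 10.15 and 10.35 (−0.02, 95% interval −0.64 to 0.59). Both overlapped between the groups.

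The 6 genes whose windows hold the heat shock element read as follows. Hspd1 and Hspe1, whose windows share the element, differed by −0.52 and −0.55 log2 units. Dnaja1 and Cct4 differed by −0.02 and 0.001, Hsph1 overlapped between the groups, and Hspa8, at the top of the scale, gives no readable difference. Of the heat shock factors, Hsf2 differed by −0.38 (SE 0.25, limma adjusted p = 0.630) and Hsf4, which was dim, by −0.57 (SE 0.40). Of 4 measured factors 2 were lower and 2 higher, with 0 at an unadjusted p under 0.05 by limma and 0 after adjustment.

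In the endoplasmic reticulum, BiP, encoded by Hspa5, is the resident HSP70 and Hsp90b1 encodes GRP94, the resident HSP90. Hspa5 read 14.20 and 14.59 in the control cultures against 14.01 and 13.78 in those labelled Smyd2, wholly apart and 1.42-fold lower (−0.51, SE 0.27, 95% interval −1.19 to 0.18, limma adjusted p = 0.543). Without beta-galactosidase replicate 2 the difference was −0.31. All 10 of its features were lower, from −0.51 to −0.40. Hsp90b1 read 13.42 and 13.23 against 13.36 and 13.20, so its groups overlapped (−0.05, 95% interval −0.66 to 0.57). Dnajb9, a DNAJ partner of BiP induced by misfolded protein, read 8.35 and 8.07 against 7.50 and 7.88 (−0.52, SE 0.27, limma adjusted p = 0.541). Dnajc3, which restrains the PERK kinase and assists BiP, read 11.22 and 11.37 against 11.23 and 11.34 (−0.01, 95% interval −0.60 to 0.59). Whether these genes differed from each other was not tested.

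The promoter windows of 3 of these genes hold the endoplasmic reticulum stress element, CCAAT and CCACG with 9 bases of any kind between them, searched on both strands. It was present in 4.92% of the 61 windows and in 0.0657% of all windows. They are shown because these genes encode central chaperones of the compartment, whose values stand above. Capitals mark the element, with 5 bases on either side.
Hspa5, chr3:38452968-38452996, plus strand: gttcaCCAATCGGAGGCCTCCACGacggg
Hsp90b1, chr7:23012446-23012474, minus strand: caaacCCAATCGAAAGGAGCCACGcttcg
Hsp90b1, chr7:23012342-23012370, minus strand: gagtgCGTGGTGAGGCACGATTGGtgggt
Dnajc3, chr15:102432529-102432557, plus strand: caaagCCAATCAGCGCCAACCACGaccca

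The 5 genes that lay apart with the arrays labelled Smyd2 higher were Hsp90ab1 and Dnajc28, each given with its group, and Dnajb14, Dnajc22 and Dnajc14, named after their values were seen. Dnajb14, a membrane DNAJ protein of the endoplasmic reticulum, read 8.56 and 8.04 on the controls, compared with 8.71 and 8.78 in the Smyd2-labelled cultures (0.44, SE 0.28, limma adjusted p = 0.616). Dnajc22 differed by 0.36 and Dnajc14 by 0.27, and both features of each were higher. Of the genes not mentioned elsewhere, also named after their values were seen, 5 differed by more than 0.5 log2 units. Dnajc16 (−0.96), Dnajb7 (−0.66), Dnajc27 (−0.54) and Hspa1l (0.82) were dim, and Dnajb3 (−0.57) overlapped between the groups. The Cct6a pseudogenes differed by −0.10 and 0.02.

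Folding genes of the endoplasmic reticulum outside the symbol rule were split. Of 17 measured genes 9 were higher and 8 lower (median 0.08), and the arrays labelled Smyd2 lay above both controls for 5 (29.4%, against 21.9% of all genes) and below both for 1 (5.88%, against 20.8%). Sec63, the DNAJ subunit of the translocation channel, read 8.74 and 8.65 in the control cultures against 9.30 and 9.03 in those labelled Smyd2 (0.47, SE 0.24, limma adjusted p = 0.534). Sdf2l1, a component of a BiP-containing chaperone complex, read 11.44 and 11.09 against 10.75 and 11.02 (−0.38, SE 0.26, limma adjusted p = 0.644). By limma 0 of the 17 had an unadjusted p under 0.05, and 0 passed after adjustment.

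The chaperonin TRiC gave small differences. Its 8 ring subunits, Tcp1, Cct2 to Cct5, Cct6a, Cct7 and Cct8, differed by −0.32 to 0.02, with a median of −0.15, and the median 95% interval reached 0.62 log2 units to either side of a difference. Cct3 read 14.46 and 14.60 on the controls, compared with 14.26 and 14.16 in the Smyd2-labelled cultures (−0.32, SE 0.23, limma adjusted p = 0.660). Tcp1 read 13.73 and 13.53 against 13.45 and 13.20 (−0.31, SE 0.25, limma adjusted p = 0.699). Cct6a read 12.88 and 12.77 against 12.55 and 12.68 (−0.21). In these 3 subunits the groups lay apart, with the arrays labelled Smyd2 lower (37.5% of the 8, against 20.8% of all genes). They lay apart with these arrays higher in 0 of the 8, against 21.9% of all genes.

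In the other 5 subunits the groups overlapped. Cct7 read 12.59 and 12.29 in the control cultures against 12.30 and 12.18 in those labelled Smyd2 (−0.20), and Cct8 8.05 and 7.48 against 7.74 and 7.60 (−0.10). Cct2 read 11.21 and 10.90 against 10.95 and 11.02 (−0.07), Cct5 11.25 and 11.19 against 11.20 and 11.29 (0.02), and Cct4 10.58 and 10.35 against 10.41 and 10.51 (0.001). Cct6b, the testis form of the Cct6a subunit, was dim in both groups (−0.09). The 10 to 12 features of the repeatedly spotted subunits stayed close to these values, from −0.38 to −0.08 for Cct3, from −0.28 to −0.12 for Cct6a, from −0.31 to −0.14 for Cct7 and from −0.26 to 0.01 for Cct2.

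**Figure D4:**
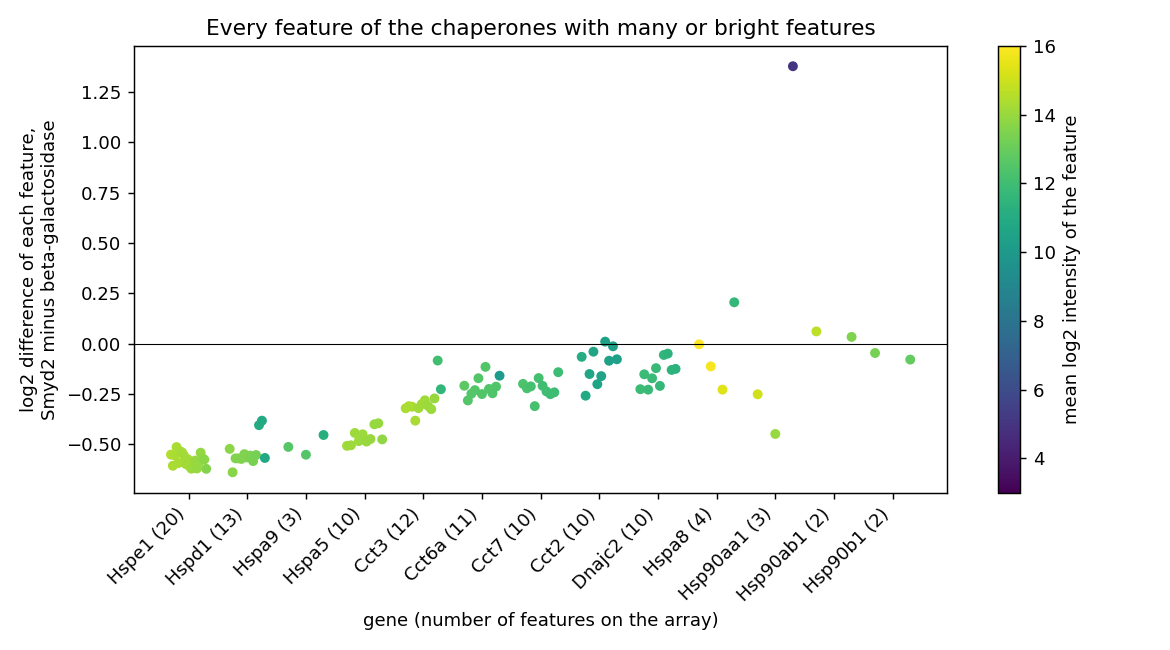
Log2 difference (y axis, arrays labelled Smyd2 minus beta-galactosidase arrays) of every feature of 13 chaperone genes (x axis, number of features in brackets), coloured by the feature's mean log2 intensity. All 20 features of Hspe1, 13 of Hspd1, 3 of Hspa9 and 10 of Hspa5 lie below −0.38, those of Cct2 lie between −0.26 and 0.01, and 1 dim feature of Hsp90aa1 stands alone at 1.38.

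Prefoldin passes actin and tubulin chains to TRiC. Of 7 measured genes for prefoldin and other TRiC partners 6 were lower and 1 higher (median −0.14). Pfdn1 read 12.52 and 12.26 on the controls, compared with 11.43 and 11.52 in the Smyd2-labelled cultures, wholly apart (−0.91, SE 0.24, limma unadjusted p = 0.0128, adjusted p = 0.294), and its other feature differed by −0.29. Pfdn6 differed by −0.28 (SE 0.25). At an unadjusted p under 0.05, Pfdn1 alone of the 7 was lower (14.3%, against 6.39% of all genes) and 0 were higher, and 0 passed after adjustment.

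The transcripts of HSP90, the known methylation substrate of SMYD2, gave small differences with wide intervals. Hsp90ab1, the constitutive form, read 14.72 and 14.65 in the control cultures against 14.74 and 14.76 in those labelled Smyd2, a difference of 0.06 with a 95% interval of −0.52 to 0.64 (SE 0.23, limma adjusted p = 0.947). The groups did not overlap, but their means were only 1.04-fold apart. Hsp90aa1, the inducible form, read 15.25 and 15.09 against 15.07 and 14.76 (−0.25, SE 0.25, 95% interval −0.89 to 0.39, limma adjusted p = 0.760). The groups were separated by less than the distance within either. Its second feature differed by −0.45 and a further dim one, which the platform ties to an expressed sequence tag, by 1.38, so that the mean of the 3 features turned to 0.23.

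The muscle cochaperones of HSP90 had larger differences than the HSP90 genes, a contrast that was not itself tested. Unc45b, which works with HSP90 to fold the myosin head in striated muscle, read 12.02 and 12.95 on the controls, compared with 10.20 and 10.34 in the Smyd2-labelled cultures, 4.65-fold lower (−2.22, SE 0.37, limma unadjusted p = 0.00191, adjusted p = 0.188). Itgb1bp2, the muscle protein melusin that binds HSP90, read 7.25 and 7.99 against 5.61 and 5.83, or 3.74-fold lower (−1.90, SE 0.33, limma unadjusted p = 0.00218, adjusted p = 0.191). For both, each array labelled Smyd2 lay far below the lower control array. Under the robust prior that follows intensity both passed limma's test over all genes, with adjusted p = 0.00805 and 0.033. In that fit 1.45% of all genes passed as lower. Unc45a, the form that most cells carry, read 9.81 and 9.86 against 10.32 and 10.44, higher on each array (0.54, SE 0.23, limma adjusted p = 0.448).

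Of the 21 measured cofactors of HSP90 and HSP70, 15 were lower and 6 higher (median −0.17), and the 18 that differed by under 0.5 log2 units include all but Unc45b, Itgb1bp2 and Unc45a. St13, the HSP70-interacting protein Hip, read 9.95 and 9.90 in the control cultures against 10.17 and 10.35 in those labelled Smyd2 (0.33, SE 0.23, limma adjusted p = 0.651). At an unadjusted p under 0.05, 2 cofactors were lower (9.52%, against 6.39% of all genes) and 0 higher (against 5.51%). Beside the muscle cochaperones 7 of 8 cardiomyocyte markers were lower (median −1.89). Under the robust prior that follows intensity, 6 of the 8 passed limma's adjusted test as lower too, against 1.45% of all genes. The part of these markers in the cochaperone differences was not tested.

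**Figure D5:**
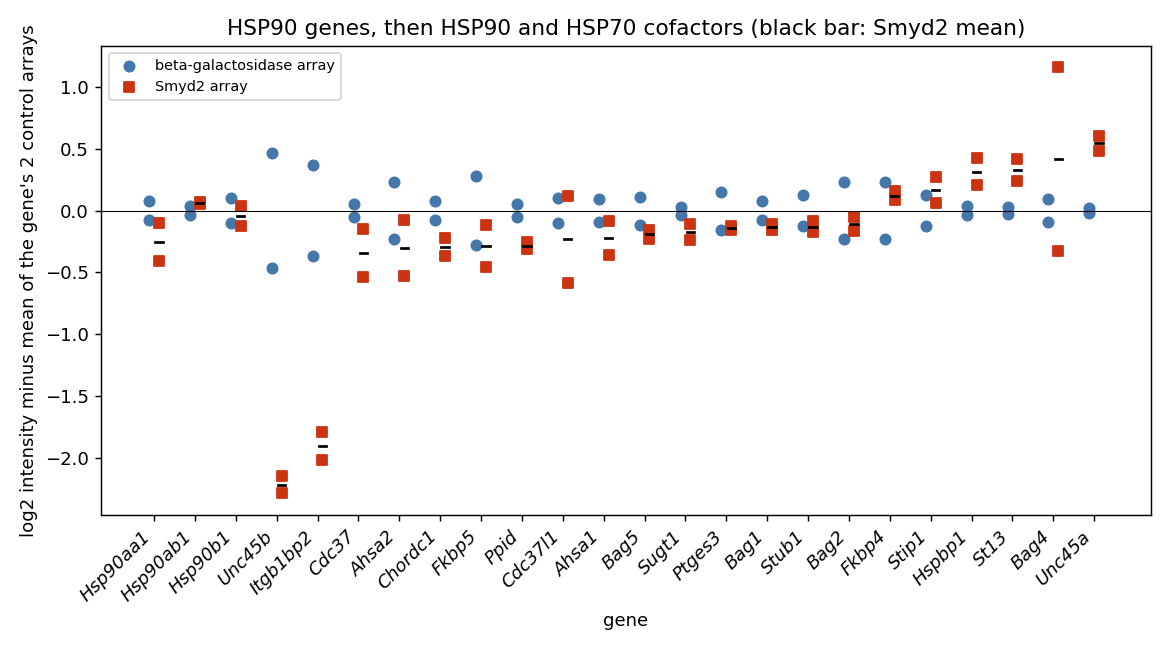
Log2 intensity on every array minus the mean of the gene's 2 control arrays (y axis) for the 3 HSP90 genes and then 21 cofactors (x axis); circles are beta-galactosidase arrays, squares are arrays labelled Smyd2 and black bars their means. Unc45b and Itgb1bp2 stand apart at −2.22 and −1.90, while Hsp90aa1, Hsp90ab1 and Hsp90b1 lie between −0.25 and 0.06.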

How the data were processed

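The submitters' processing notes name limma, without a version. How the authors corrected background, normalized and handled repeated spots is not stated in the labels. Deposited values are log2 intensities for 62976 features on 4 Cy3 arrays, and the log2 unit was read from the values. They run from 2.07 to 16.00 with a median of 4.70 on each array, as quantile normalization would leave them, so differences are relative to the bulk of features. Values above 15.9 were taken as the top of the scale.

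Groups were taken from sample titles. Features were named through GEO's platform annotation, parts of which are out of date; 36191 carried 1 symbol, 26785 none and 0 more than 1. Accessions of 28229 matched the RefSeq gene table. Members and lists were chosen with earlier results of these data known. Named with every array's value were members at an unadjusted p under 0.05 and a set of standard members of each family. The smallest p in each of the other lists chose 2 to 4 genes.

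The brightest feature of each gene was fitted by lmFit and eBayes of limma 3.58.1 under R 4.3.3 (no trend, no block, 2 residual degrees of freedom), two-sided, with Benjamini-Hochberg adjustment over 19867 genes at 0.05. The fit was also run on data simulated from its own fitted prior, which checks the code and not the p-values of these arrays. The design text calls the replicates biological but does not say whether they came from separate isolations, so p-values measure the spread between these samples. Over all genes, samples with the same number did not deviate together (correlation of deviations 0.03), and the numbers were not taken as pairs. Leukocyte markers did shift alike: replicate 2 minus replicate 1 had a median of −1.02 in the controls and −1.09 in the Smyd2-labelled cultures. For fibroblast markers these medians were 0.46 and −0.19. Whether samples with the same number share an origin was not tested. As alternatives, arrays were quantile normalized again or centred on their median, genes under a mean of 6 were dropped, the prior was made robust with an intensity trend, replicate number became a block, features were averaged, and each array was left out in turn. Compartments were assigned from general knowledge.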

Additional observations from a re-analysis of the deposited data

How the results depend on the processing

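When the prior was robust and followed intensity, 383 genes passed limma's adjusted test in place of 0, none of them among the 76 chaperones, and 11 chaperones in place of 6 were lower at an unadjusted p under 0.05. With the mean of all features the HSP90 median was 0.047, Hsp90aa1 0.23 and Hspa1a −0.13. With arrays centred on their median Hspa8, at the top of the scale, was at 0.002. With the replicate block, 0 chaperones passed, 6 were lower at an unadjusted p under 0.05 and the count over all genes was 2251. The genes behind this count changed, as Dnajc15 was no longer among them (limma adjusted p = 0.442, behind Dnajb5 at 0.383).

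Leaving out each array in turn gave 1149 to 3151 genes and 2 to 7 lower and 0 to 2 higher chaperones at an unadjusted p under 0.05. Separated groups then ranged from 36 to 47 lower and from 10 to 19 higher, since fewer arrays overlap less. The mitochondrial median ranged from −0.55 to −0.36, that of the endoplasmic reticulum from −0.23 to −0.091, that of the cytosol and nucleus from −0.21 to −0.060, DNAJB from −0.37 to −0.19, DNAJC from −0.29 to −0.052, TRiC from −0.21 to −0.026 and HSP90 from −0.15 to 0.052. The sign turned for Cct2 (−0.22 to 0.089), Cct4 (−0.11 to 0.11), Cct5 (−0.023 to 0.066), Cct8 (−0.38 to 0.19), Dnaja1 (−0.12 to 0.075), Dnajc3 (−0.086 to 0.066), Hsp90b1 (−0.15 to 0.052), Hspa1b (−0.28 to 0.59), Hsph1 (−0.076 to 1.01) and, at the top of the scale with no readable direction, Hspa8 (−0.0107 to 0.0034). Without Smyd2 replicate 1, Dnajb9 was at −0.32 and Clpx at −0.26. Without Smyd2 replicate 2, Tcp1 was at −0.18. Without beta-galactosidase replicate 2, Hsf2 was at −0.20 and Hsf4 at −0.056, and without replicate 1 Sdf2l1 was at −0.21. The cause of these shifts was not tested. With no detection flags, dim genes give lower bounds at most.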
